A study of Mus musculus with 6 samples.

Results

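The genes described here are the replication-dependent histone genes of the mouse, as seen in polyadenylated RNA of fetal liver. They are the rows of the deposited gene count table whose symbol starts with Hist1h, Hist2h, Hist3h or Hist4h and whose counts add up to at least 10 over all libraries. Such a symbol is carried by 70 of the 34542 rows, and 66 of these reach that count. These 66 comprise 5 H1, 18 H2A, 18 H2B, 12 H3 and 13 H4 genes, among them 3 annotated pseudogenes. Just inside the limit were Hist2h2ab with 17 and Hist3h2bb-ps with 33 counts, and just outside it Hist1h2ba with 7 and Hist1h1t with 6 counts. Hist1h2aa and Hist2h2aa1 had 0 counts.

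RNA came from fetal liver cells of C57BL/6J embryos of genotype miR-144/451-/- (KO, replicates 4, 5 and 6) and of WT embryos (replicates 1, 2 and 3). The KO lacks the locus of 2 microRNAs that are abundant in maturing red cells, and the comparison asks which transcripts differ without it. The labels give neither the embryonic age nor whether a library holds 1 embryo or several, so every p-value reflects the spread among these 6 libraries, which may be technical. In the gene count table, libraries held 40392139 to 44700229 counts in KO and 24659978 to 36082084 counts in WT. The KO libraries thus had the higher totals in that table. Mir144 had 1, 1 and 0 counts in KO and 51, 47 and 29 counts in WT, and Mir451 had 3, 2 and 4 counts in KO and 323, 446 and 418 counts in WT.

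Histones package DNA into nucleosomes: H2A, H2B, H3 and H4 form the core, and the linker histone H1 binds where DNA enters and leaves it. Replication-dependent genes supply them in S phase, lie in clusters, and mostly lack introns. Their messenger RNAs usually end in a conserved stem-loop bound by SLBP rather than in a poly(A) tail, and the U7 small nuclear ribonucleoprotein directs the cut just after it. Selection for poly(A) therefore recovers little of this RNA, and polyadenylated forms of some of these genes are known from differentiating cells. Counts per gene do not show which 3′ end a molecule had.

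The stem-loop is shown because it is the feature that sets these RNAs apart from other messenger RNAs. Its 16-base consensus, a stem around a short loop rich in T, was searched on the sense strand of GENCODE transcripts (build GRCm38), and was found in 44 of 66 members (66.7%) and in 0.413% of 21810 other genes with a protein-coding transcript. By class it was found in 3 H1, 10 H2A, 10 H2B, 9 H3 and 12 H4 members. Several models that lack it stop at the stop codon, so no match says only that the letters are not in the annotated transcript. Others without a match have exons well beyond their coding length. Among them are Hist1h2bc (1156 exonic and 378 coding bases) and Hist2h2be (2620 exonic and 378 coding bases). In the following windows the stem-loop is in capitals, with 5 bases on either side.
Hist1h1c: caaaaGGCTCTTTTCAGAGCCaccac
Hist1h1d: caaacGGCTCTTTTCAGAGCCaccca
Hist1h1e: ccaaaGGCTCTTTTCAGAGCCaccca
Hist3h2a: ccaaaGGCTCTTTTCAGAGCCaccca
Hist1h3g: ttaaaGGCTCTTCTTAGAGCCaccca
Hist1h4i: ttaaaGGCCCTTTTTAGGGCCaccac
Hist1h4b: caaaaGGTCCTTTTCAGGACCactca
The form in Hist1h1c was the most frequent, shared by 25 members of the H1, H2A, H2B and H3 classes. The stems of the H4 genes differed from it: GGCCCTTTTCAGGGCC occurred in 7 members, all of them H4.

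The members made up a small part of the counts that the gene table holds for each library. They took 19630, 22859 and 20916 counts in KO replicates 4, 5 and 6, and 11085, 7929 and 6557 counts in WT replicates 1, 2 and 3. As a share of all counts in that table this was 0.0439% (95% exact binomial interval 0.0433% to 0.0445%), 0.0557% (0.0550% to 0.0565%) and 0.0518% (0.0511% to 0.0525%) in the KO libraries. In the WT libraries it was 0.0307% (0.0302% to 0.0313%), 0.0228% (0.0223% to 0.0233%) and 0.0266% (0.0260% to 0.0272%). Intervals cover counting error only. All 3 KO libraries lay above all 3 WT libraries. Hist1h1c, Hist1h2bc, Hist2h2be and Hist1h4i together held 80.7% to 81.8% of these counts in KO and 74.5% to 77.6% in WT. The other 62 members were rare, with mean levels of 0.0824 to 5.72 CPM, in which a count is divided by its library's size after TMM scaling, and a median of 0.779 CPM.

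**Figure D1:**
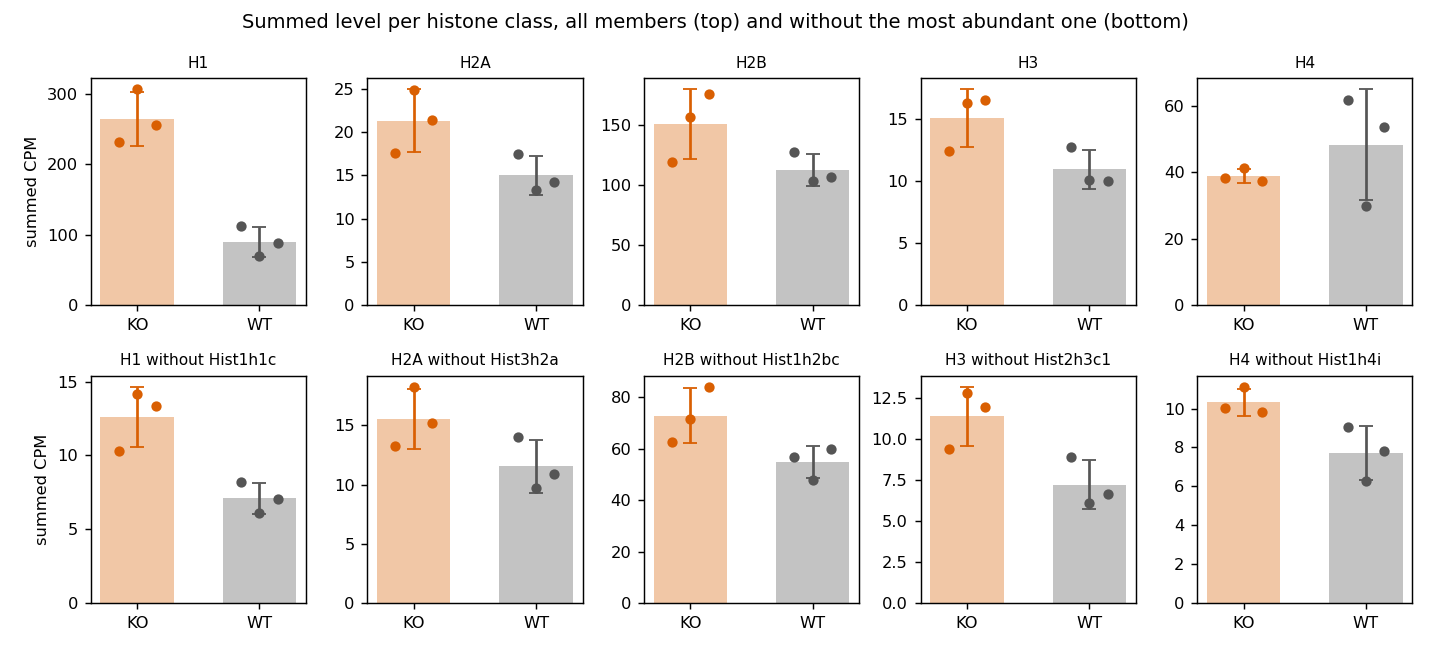
Summed level in CPM of the members of each histone class, with all members (top row) and without the most abundant one (bottom row); points are libraries, bars the mean and error bars the SD of 3 KO and 3 WT libraries. H1 stands at 231 to 306 CPM in KO, above 69.7 to 112 CPM in WT, while the H4 groups overlap until Hist1h4i is left out.

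Summed over all members, levels were 418, 545 and 507 CPM in KO replicates 4, 5 and 6, and 332, 226 and 272 CPM in WT replicates 1, 2 and 3. That is 490 ± 65.2 CPM in KO and 277 ± 53.1 CPM in WT (SD, n = 3 each), 1.77 times the WT level, with no overlap. Hist1h1c carried most of the difference: without it the sums were 239 ± 36.0 CPM in KO and 194 ± 32.7 CPM in WT (SD, n = 3 each), and the groups overlapped. The classes differed. H1 summed to 264 ± 38.4 CPM in KO and 90.03 ± 21.5 CPM in WT (SD, n = 3 each). H2A summed to 21.3 ± 3.65 CPM in KO and 14.98 ± 2.20 CPM in WT, and H3 to 15.1 ± 2.32 CPM in KO and 10.9 ± 1.55 CPM in WT (SD, n = 3 each). H2B reached 151 ± 29.2 CPM in KO and 113 ± 13.1 CPM in WT (SD, n = 3 each). H4 was the class with the lower mean in KO, 38.9 ± 2.03 CPM against 48.3 ± 16.6 CPM in WT (SD, n = 3 each). No test was made on these sums, since with 3 libraries against 3 the smallest two-sided exact p is 0.1. With all members the H2B, H3 and H4 sums overlapped between groups, and the H1 and H2A sums did not. Without the most abundant gene of each class the KO to WT ratio of the sums ran from 1.33 to 1.78 and was above 1 in all 5 classes. The H2A sum without Hist3h2a then overlapped between groups, and the sums of the other classes did not.

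In the linker histone class, Hist1h1c rose in KO livers. It encodes H1.2, on chromosome 13 at 23738808 to 23740367 on the plus strand of GRCm38, in a single annotated exon. Hist1h1c measured 221, 292 and 242 CPM in KO replicates 4, 5 and 6, and 104, 63.6 and 80.9 CPM in WT replicates 1, 2 and 3. Every KO library lay above every WT library. The log2 change was 1.60 (SE 0.20), 3.03-fold, with an adjusted p of 0.0184 by edgeR's quasi-likelihood test with Benjamini-Hochberg adjustment over all 15105 tested genes. Of those genes 1.83% were called higher and 1.45% lower by the same rule. RLE scaling (1.95% of all genes higher, 1.52% lower) and limma-voom (1.79% higher, 1.45% lower) also called Hist1h1c and no other member. DESeq2 (3.83% higher, 3.53% lower) called Hist1h1c too (adjusted p = 1.2e-12), together with Hist1h1d and Hist1h4k. Whether the adjusted p passed depended on the libraries in the fit. It was (edgeR) 0.0627, 0.0774 and 0.0509 without KO replicate 4, 5 or 6, and 0.0594, 0.00926 and 0.0951 without WT replicate 1, 2 or 3. The unadjusted edgeR p of Hist1h1c was 1.1e-04 to 9.3e-04 in these fits, beside 1.4e-04 with all libraries. The log2 change stayed between 1.44 and 1.80 in these 6 fits. Calls over all genes moved as well. Higher calls were 0.0913%, 0.0326% and 0.355% of genes without KO replicate 4, 5 or 6, and 0.0387%, 3.16% and 0.0388% without WT replicate 1, 2 or 3. Lower calls were 0.0783%, 0.0456% and 0.289%, and 0.0517%, 6.61% and 0.0582% in the same fits. Of the 50-base stretches in its transcript 91.5% occur in no other annotated transcript.

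The other 4 H1 genes had positive log2 changes and did not pass the threshold. Hist1h1d, which encodes H1.3, measured 6.07, 9.30 and 7.75 CPM in KO and 4.49, 3.42 and 3.28 CPM in WT. The groups did not overlap (log2 change 1.04, SE 0.22, edgeR adjusted p = 0.0652), and DESeq2, which called 3.83% of genes higher and 3.53% lower, called it (adjusted p = 0.00181). Hist1h1e, which encodes H1.4, measured 1.26, 1.79 and 1.36 CPM in KO and 0.929, 0.684 and 0.789 CPM in WT, again without overlap (log2 change 0.87, SE 0.25, edgeR adjusted p = 0.135). Its annotated exon shares positions with Hist1h2be and Gm11398. Hist1h1b (H1.5) had a log2 change of 0.46 (SE 0.25) and Hist1h1a (H1.1) of 0.32 (SE 0.40), with overlapping groups. Hist1h1d and Hist1h1e were singled out after their values were seen. Per kb of annotated exon Hist1h1c stood at 107 CPM, Hist1h1b at 3.08 and Hist1h1a at 0.974 CPM. Hist1h1d is annotated with 7425 exonic bases in GENCODE and therefore ranks low on that scale. The models that were counted may differ from these. Hist1h1c held 94.8% to 95.5% of all H1 counts in KO libraries and 91.2% to 92.7% in WT libraries.

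**Figure D2:**
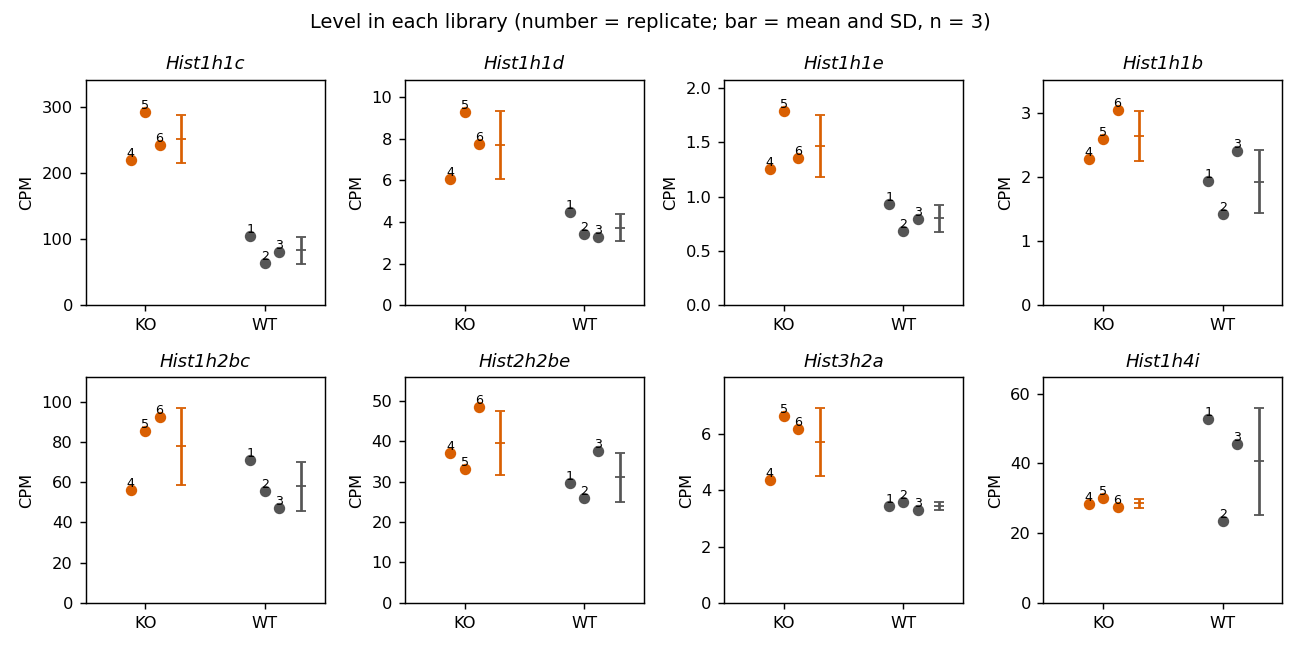
Level in CPM of 8 members in each library; numbers are replicates and bars the mean with SD of 3 libraries. In Hist1h1c, Hist1h1d, Hist1h1e and Hist3h2a all KO libraries lie above all WT libraries, and in Hist1h4i WT replicate 2 (23.4 CPM) lies below the KO libraries while WT replicates 1 and 3 lie above them.

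The promoters of Hist1h1c, Hist1h1d and Hist1h1e are shown because these were the 3 H1 genes whose groups did not overlap. The sequences are RefSeq's (GRCm38.p6), run 5′ to 3′ along the gene and cover 250 bases before to 50 after its start; capitals mark matches on either strand to the TATA box (TATAAA), the CCAAT box, the octamer (ATTTGCAT) or the H1 box (AAACACA), none of which contains another.
Hist1h1c, chr13:23738557-23738856, plus strand: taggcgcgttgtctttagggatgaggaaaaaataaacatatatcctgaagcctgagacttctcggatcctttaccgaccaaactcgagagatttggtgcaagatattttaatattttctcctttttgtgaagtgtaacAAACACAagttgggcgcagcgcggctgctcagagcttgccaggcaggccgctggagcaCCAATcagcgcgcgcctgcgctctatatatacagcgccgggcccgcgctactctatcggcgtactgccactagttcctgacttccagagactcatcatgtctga
Hist1h1d, chr13:23554782-23555081, plus strand: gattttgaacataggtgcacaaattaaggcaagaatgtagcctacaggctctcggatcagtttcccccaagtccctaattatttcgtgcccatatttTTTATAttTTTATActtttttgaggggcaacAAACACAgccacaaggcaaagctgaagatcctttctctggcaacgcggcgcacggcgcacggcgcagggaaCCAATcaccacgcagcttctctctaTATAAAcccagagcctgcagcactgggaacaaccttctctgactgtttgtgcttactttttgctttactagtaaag
Hist1h1e, chr13:23622509-23622808, minus strand: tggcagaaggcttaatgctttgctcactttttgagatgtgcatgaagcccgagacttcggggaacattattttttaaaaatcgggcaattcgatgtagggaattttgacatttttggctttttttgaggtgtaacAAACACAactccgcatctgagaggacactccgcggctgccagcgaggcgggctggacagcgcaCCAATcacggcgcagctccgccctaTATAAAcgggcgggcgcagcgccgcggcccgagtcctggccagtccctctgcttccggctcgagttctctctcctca
The H1 box started at -112 in Hist1h1c, -122 in Hist1h1d and -115 in Hist1h1e, counted from the gene's start. CCAAT started at -54, -51 and -52 in the same genes. AAACACA was found in 4 of 5 H1 promoters, in 1 of 15 H2A and 1 of 15 H2B promoters, and in 7.18% of all 32851 promoters of the table. CCAAT was found in all 5 H1, 15 H2A, 15 H2B and 10 H3 promoters, in 3 of 12 H4 promoters and in 37.4% of all promoters. TATAAA was found in 56.1% of the 57 members with a promoter in the table and in 13.6% of all promoters. ATTTGCAT, the octamer bound by OCT1, was found in 6 H2A and 6 H2B promoters, in 0 of 5 H1, 10 H3 and 12 H4 promoters, and in 1.74% of all promoters.

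Among the H2A genes, which form the core dimer with H2B, no member passed the test (0 of 15 by edgeR and by limma-voom, and 0 by DESeq2). An unadjusted edgeR p below 0.05 was reached by 5 genes with higher and 1 with lower levels, beside 7.77% and 8.78% of all tested genes. Hist3h2a measured 4.34, 6.63 and 6.18 CPM in KO and 3.44, 3.59 and 3.28 CPM in WT, so that every KO library exceeded every WT library (log2 change 0.73, SE 0.20, edgeR adjusted p = 0.129). Its annotated exon shares positions with Trim17 and Gm44313. Of its 50-base stretches 68.5% are its own, and 31.5% occur in Trim17 in the same direction. Reads from those stretches cannot be told apart even with strand, nor without strand can reads over Gm44313. Hist2h2aa2 had a log2 change of 0.53 (SE 0.25), and 0% of its 50-base stretches are its own, all of them occurring in Gm20634 as well, so its reads may be shared and its value is uncertain. Hist1h2af measured 1.64, 0.763 and 1.16 CPM in KO and 2.16, 0.799 and 1.58 CPM in WT (log2 change -0.34, SE 0.44). Hist1h2ai had the largest positive change of the class, 0.625 ± 0.182 CPM in KO and 0.277 ± 0.0524 CPM in WT (SD, n = 3 each, log2 change 1.18, SE 0.33, edgeR adjusted p = 0.136). The pseudogene Hist1h2aj had the most negative change of all tested members. It measured 0.511, 0.573 and 0.460 CPM in KO and 0.749, 0.913 and 1.08 CPM in WT, with no overlap (log2 change -0.82, SE 0.25, edgeR adjusted p = 0.161). Hist1h2ai and Hist1h2aj share most of their sequence with other H2A genes: 9.88% and 6.93% of their 50-base stretches are their own.

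Hist1h2bc and Hist2h2be were the most abundant H2B genes, and neither passed the test. Hist1h2bc measured 56.1, 85.2 and 92.2 CPM in KO and 71.0, 55.7 and 46.9 CPM in WT (log2 change 0.43, SE 0.23, edgeR adjusted p = 0.430). KO replicate 4 lay within the WT range. Hist2h2be measured 37.1, 33.2 and 48.4 CPM in KO and 29.6, 25.8 and 37.7 CPM in WT (log2 change 0.35, SE 0.19, edgeR adjusted p = 0.452). Per kb of exon Hist1h2bc stood at 58.7, Hist2h2be at 13.5 and Hist1h2bg at 7.60 CPM. Hist1h2bg varied among libraries of the same genotype, with 3.73, 9.11 and 5.09 CPM in KO and 5.51, 2.54 and 2.20 CPM in WT (log2 change 0.80, SE 0.47). Hist1h2bm had the most negative change of the class (-0.52, SE 0.39), with overlapping groups. Of 17 tested H2B genes 0 passed by edgeR in either direction, limma-voom and DESeq2 called 0 as well, and the unadjusted edgeR p was below 0.05 for 3, all higher (17.6%, beside 7.77% of all tested genes).

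Among the H3 genes 0 of 11 tested passed in either direction by edgeR, limma-voom or DESeq2, and the unadjusted edgeR p was below 0.05 for 2, both higher (18.2%, beside 7.77% of all tested genes). Hist1h3g measured 2.19, 2.98 and 2.64 CPM in KO and 1.65, 1.60 and 1.54 CPM in WT. The WT values lay close together and below every KO value (log2 change 0.71, SE 0.19, edgeR adjusted p = 0.125). Hist1h3c had no overlap either (log2 change 0.88, SE 0.30, edgeR adjusted p = 0.205). Hist2h3c1 measured 3.72 ± 0.799 CPM in KO and 3.74 ± 0.339 CPM in WT (SD, n = 3 each, log2 change -0.01, SE 0.21), and 0% of its 50-base stretches are its own.

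Among the H4 genes, which pair with H3 in the nucleosome core, Hist1h4i was the most abundant. It stood at 47.6 CPM per kb of exon and measured 28.3, 30.03 and 27.4 CPM in KO and 52.7, 23.4 and 45.6 CPM in WT. WT replicate 2 lay below all KO libraries and the other WT libraries above them (log2 change -0.50, SE 0.28, edgeR adjusted p = 0.463). Without WT replicate 2 the log2 change was -0.78 (SE 0.09, edgeR adjusted p = 0.0103), in a fit that called 3.16% of all genes higher and 6.61% lower. When any other single library was left out, it was -0.54 to -0.27, with edgeR adjusted p of 0.581 to 0.869. Hist1h4k measured 2.04, 2.17 and 2.69 CPM in KO and 0.839, 1.17 and 1.33 CPM in WT (log2 change 1.05, SE 0.25, edgeR adjusted p = 0.0843), and DESeq2 called it (adjusted p = 0.0420). Of its 50-base stretches 28.5% are its own. Hist2h4 measured 0.379 ± 0.0555 CPM in KO and 0.575 ± 0.0872 CPM in WT (SD, n = 3 each), without overlap (log2 change -0.60, SE 0.27, edgeR adjusted p = 0.339). Hist1h4b measured 1.29 ± 0.109 CPM in KO and 1.10 ± 0.0660 CPM in WT (SD, n = 3 each, log2 change 0.23, SE 0.19). Of 12 tested H4 genes 0 passed in either direction by edgeR or limma-voom, DESeq2 called Hist1h4k, and 1 gene, also Hist1h4k, had an unadjusted edgeR p below 0.05 (8.33%, near the 7.77% of all tested genes).

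**Figure D3:**
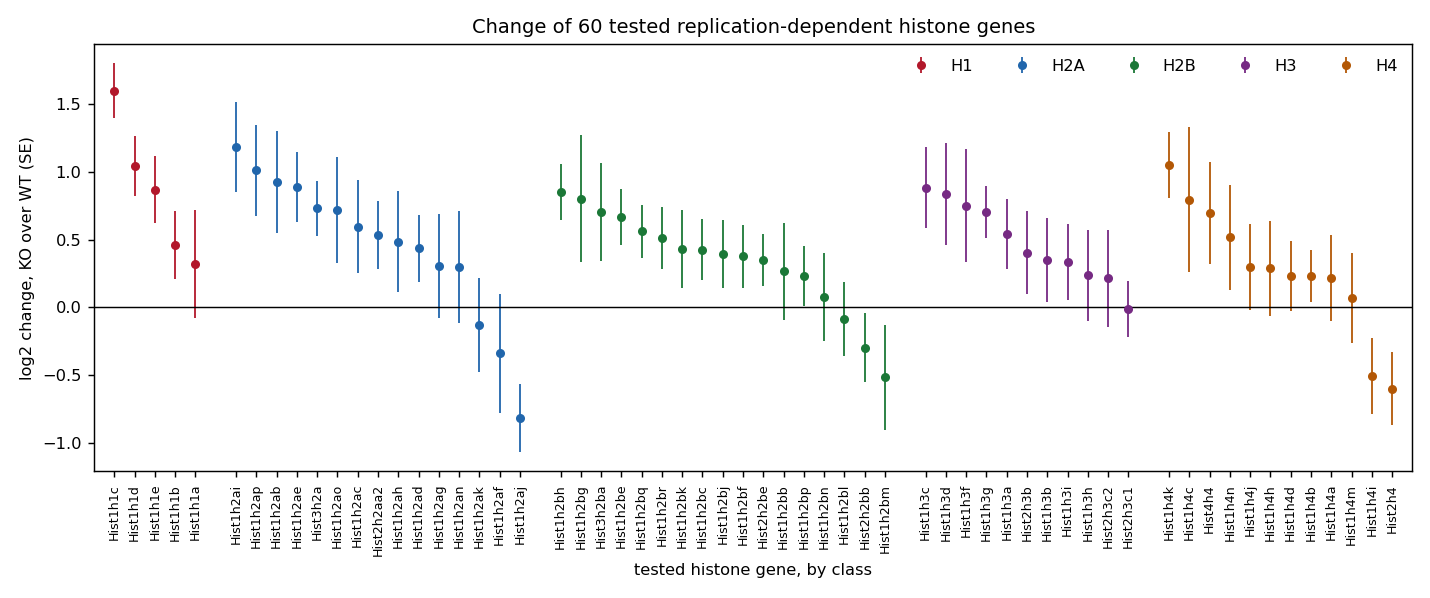
Log2 change, KO over WT, of the 60 members that passed the filter on low counts, grouped by class and sorted; error bars are SE. Hist1h1c is the top gene at 1.60, and Hist1h2aj (-0.82), Hist2h4 (-0.60), Hist1h2bm (-0.52) and Hist1h4i (-0.50) are at the other end.

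Counting all 66 members, in a fit without a filter on low counts, 56 had a log2 change above 0 and 10 below 0. The median was 0.47, against -0.0033 over all 22468 genes with a count, of which 49.6% were above 0. All 5 H1 and all 12 H3 genes were above 0, with 13 of 18 H2A, 15 of 18 H2B and 11 of 13 H4 genes. The median by class was 0.91 for H1, 0.55 for H2A, 0.45 for H2B, 0.51 for H3 and 0.33 for H4. Without the 4 most abundant genes the median was 0.47 over 62 genes. For 16 members (24.2%) all KO libraries lay above all WT libraries, and for 2 (3.03%) below, beside 8.76% and 8.79% of all genes. All genes here include those under 10 counts, which members by definition are not. Among tested genes the shares were 26.7% and 3.33% of members, beside 11.8% and 10.9% of all. By the adjusted threshold 1 member passed in this fit, Hist1h1c, beside 1.08% of all genes called higher and 0.748% lower. An unadjusted p below 0.05 was reached by 16 members with higher and 1 with lower levels, beside 6.08% and 5.01% of all genes. With the filter 60 members were tested, and 6 of these reached its cutoff in fewer than 3 WT libraries and 0 in fewer than 3 KO libraries. The 6 untested members, Hist1h2al, Hist1h3e, Hist1h4f, Hist2h2ab, Hist2h2ac and Hist3h2bb-ps, had 17 to 61 counts in all. Leaving out each library in turn gave medians of 0.31 to 0.55 for the tested members, beside -0.09 to 0.01 for all tested genes. The lowest was found without WT replicate 2 and the highest without WT replicate 1.

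**Figure D4:**
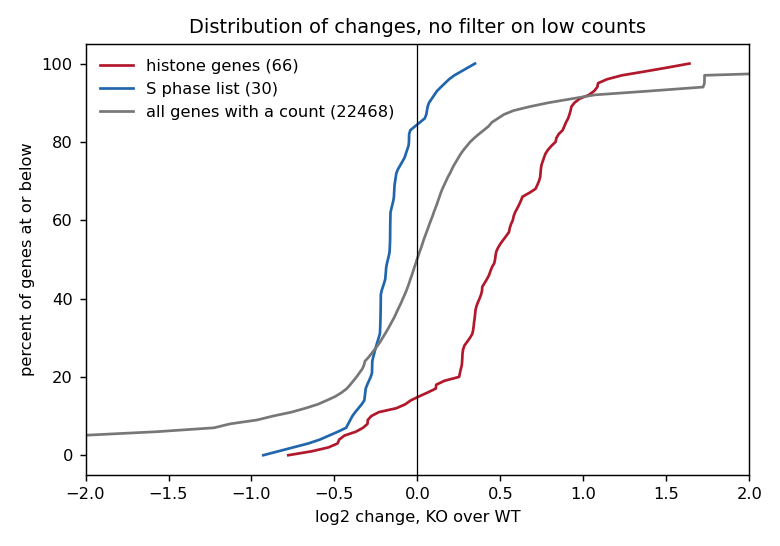
Cumulative percent of genes against log2 change, KO over WT, for the 66 histone genes, the 30 genes of the S phase list and all 22468 genes with a count, without a filter on low counts. The histone curve crosses the midline at a log2 change of 0.47, the S phase curve at -0.18 and the curve of all genes near 0.

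Many members resemble each other so closely that reads can fit several. For 33 of 66 members under 50% of the 50-base stretches of their transcripts were their own. In the fit without filter the median log2 change was 0.41 for those and 0.62 for the other 33. It was 0.58 for the 44 members with a stem-loop in their annotated transcript and 0.37 for the 22 without. An exon of another annotated gene shares positions with 24 members. Histone genes often face away from a neighbour across a short shared promoter region. Within 1000 bases 15 such pairs were annotated, each of an H2A and an H2B gene except Hist1h2bh with Hist1h3f, and Hist1h2ba with Hist1h2aa lay under the count limit. Of the 12 pairs with both genes tested 9 had 2 positive log2 changes, Hist1h2bh with Hist1h3f among them. Of all 60 tested members 51 (85%) were above 0, so most pairs would be positive without any link. Whether neighbours change together was not tested. Hist1h2ae and Hist1h2bg (175 bases apart) had 0.89 and 0.80, whereas Hist1h2aj and Hist1h2bm (235 bases apart) had -0.82 and -0.52. Hist1h2bl and Hist1h2ai differed in sign (-0.09 and 1.18).

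**Figure D5:**
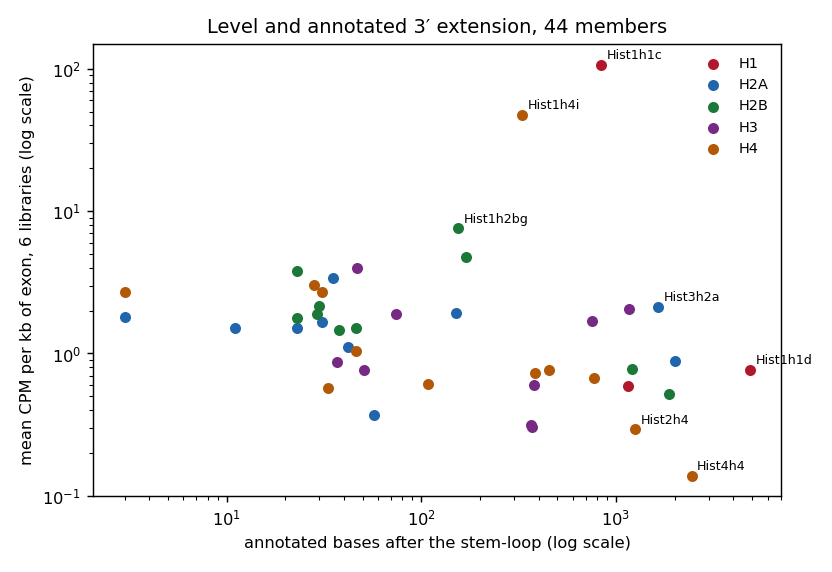
Mean level over 6 libraries, in CPM per kb of annotated exon, against the annotated bases that follow the stem-loop, for the 44 members with one (both axes logarithmic). Hist1h1c (840 bases) and Hist1h4i (330 bases) stand above the rest of these 44. The abundant Hist1h2bc and Hist2h2be have no match and are not plotted. The exon length that divides the level includes the extension, so a long extension by itself lowers the plotted value. Hist1h1d (4884 bases) has 5.72 CPM but 0.770 CPM per kb, and Hist4h4 (2445 bases) has 0.397 CPM and 0.139 CPM per kb.

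Annotated transcripts ran past the stem-loop by 3 to 4884 bases. The gene of highest level, Hist1h1c, is annotated with 840 bases after it and Hist1h4i with 330, while 22 members end within 100 bases. The level per kb depends on that annotated length: by coding length the top gene was the same in H1, H2B and H4, but in H2A it was Hist3h2a in place of Hist2h2aa2, and in H3 it was Hist2h3c1 in place of Hist1h3g. Introns were listed for 3 members, and their CPM are relative to all intron counts, so they are not on the scale of the exon values. Intron counts of Hist1h2bc measured 57.9 ± 23.5 CPM in KO and 36.2 ± 13.1 CPM in WT (SD, n = 3 each), with a log2 change of 0.68 (SE 0.36, edgeR adjusted p = 0.565). Hist1h2be had more intron than exon counts. Its gene body overlaps that of Hist1h1e and Gm11398. The introns measured 60.2 ± 12.9 CPM in KO and 80.3 ± 2.82 CPM in WT (log2 change -0.41, SE 0.17, edgeR adjusted p = 0.439, n = 3 each), while its exons had a log2 change of 0.67 (SE 0.21, edgeR adjusted p = 0.165). Hist1h2bp introns had a log2 change of 0.33 (SE 0.35). Over all genes 0.237% passed higher and 0.483% lower in intron counts, and 0 of these 3 members passed by edgeR; Hist1h2be had an unadjusted p below 0.05 (lower), the others did not, with no other tool run on introns.

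Matches to the seeds of the deleted microRNAs were rare after the stop codon of the members. The mature sequences (RefSeq, GRCm38.p6, plus strand, chr11:78073186-78073207 for miR-451a, chr11:78073047-78073066 for miR-144-3p and chr11:78073010-78073032 for miR-144-5p) are shown with the seed, bases 2 to 8, in capitals, because these are the RNAs that the KO lacks.
miR-451a: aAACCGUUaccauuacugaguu
miR-144-3p: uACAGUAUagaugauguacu
miR-144-5p: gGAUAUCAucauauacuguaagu
A match to miR-451a (AACGGTT) was found in Hist1h2be alone among 63 coding members (1.59%, beside 1.75% of 20968 other genes). A match to miR-144-3p (ATACTGT) was found in Hist1h1d and Hist1h2bg (3.17%, beside 11.9%), and a match to miR-144-5p (TGATATC) in Hist1h1d and Hist1h2ac (3.17%, beside 6.13%). The members' annotated sequence after the stop codon is short, with a median of 94 bases against 962 bases for other genes. For 11 of the 63 coding members, Hist1h4k among them, the annotation has no sequence after the stop codon, so there was nothing to search, and they stand in the counts above. Hist1h1c and Hist1h4i held none of these letters there.

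Genes that make and handle histone messenger RNA were taken from lists. Of 30 tested genes for processing and decay of these RNAs 0 passed in either direction by edgeR or limma-voom, 3 had an unadjusted edgeR p below 0.05, all lower (10%, near the 8.78% of all tested genes), and the median log2 change was -0.07 against -0.03 over all tested genes. Slbp, the stem-loop binding protein, measured 274, 274 and 241 CPM in KO and 468, 326 and 449 CPM in WT. The KO libraries lay below every WT library (log2 change -0.66, SE 0.15, edgeR adjusted p = 0.0856), and DESeq2 called it lower. Zfp473, a zinc finger protein that binds the U7 particle, had a log2 change of -0.45 (SE 0.17, edgeR adjusted p = 0.243) without overlap. The transcriptional coactivator Npat (-0.06), its partner Casp8ap2 (-0.15) and the U7 proteins Lsm10 (0.04) and Lsm11 (-0.05) had overlapping groups. So did the poly(A)-binding protein Pabpc1 (-0.26) and the uridylyltransferase gene Zcchc6 (-0.13).

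Of 30 genes for histone chaperones and histone gene regulation 1 fell, Asf1b, a chaperone of H3 and H4, beside 1.45% of all tested genes. It measured 117, 115 and 103 CPM in KO and 223, 162 and 200 CPM in WT (log2 change -0.80, SE 0.13, edgeR adjusted p = 0.0315). Of 30 S phase genes 1 fell, Rrm2, a subunit of ribonucleotide reductase, with 488, 505 and 433 CPM in KO and 1077, 718 and 991 CPM in WT (log2 change -0.97, SE 0.17, edgeR adjusted p = 0.0390). The groups overlapped for neither gene. The S phase list had a median log2 change of -0.22, with 25 of 30 genes below 0, and an unadjusted p below 0.05 was reached by 1 higher and 6 lower genes (3.33% and 20%, beside 7.77% and 8.78% of all tested genes). Neither call was kept when KO replicate 4, 5 or 6 or WT replicate 1 or 3 was left out. Without WT replicate 2 the lists held 7 and 10 calls, all lower, in a fit that called 6.61% of all genes lower. Slbp and Mcm2 stand in 2 of the lists.

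Of 11 replacement histone genes, which can be expressed outside S phase, 3 rose and 0 fell, beside 1.83% and 1.45% of all tested genes. The counts of these genes were the same by DESeq2 and limma-voom. Without the filter on low counts H3f3b was not called, and with the hepatocyte covariate H2afj was called lower in addition. 1 gene was lower with an unadjusted edgeR p below 0.05. Without KO replicate 4 or 6 H2afv alone was called, without KO replicate 5 or WT replicate 1 or 3 none was, and without WT replicate 2 all 3 were. H2afv, which encodes an H2A.Z, measured 75.7, 83.2 and 78.0 CPM in KO and 44.3, 40.2 and 42.0 CPM in WT (log2 change 0.90, SE 0.08, edgeR adjusted p = 0.00830). H2afy, which encodes macroH2A1, had a log2 change of 0.66 (SE 0.10, edgeR adjusted p = 0.0255), and H3f3b, which encodes H3.3, of 0.59 (SE 0.11, edgeR adjusted p = 0.0474). The linker histone gene H1f0, known from non-dividing cells, measured 51.2 ± 15.3 CPM in KO and 45.5 ± 9.79 CPM in WT (SD, n = 3 each, log2 change 0.17, SE 0.25, edgeR adjusted p = 0.877). It overlapped between groups where Hist1h1c did not.

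Summed levels of some cell type markers differed between the genotypes. Summed over 7 erythroblast markers found in the table, levels were 12740 to 15234 CPM in KO and 17490 to 24018 CPM in WT, without overlap, and 1 of the 7 was called lower. Over 5 progenitor markers they were 220 to 224 CPM in KO and 246 to 274 CPM in WT, also without overlap, and 0 were called. The 12 hepatocyte markers summed to 12687 to 45484 CPM in KO and 8660 to 55646 CPM in WT, with KO replicate 6 and WT replicate 2 the highest of their groups. Macrophage, neutrophil, endothelial, megakaryocyte and lymphoid sums overlapped between the groups, and no marker in the table was at 0 in every library. In bulk RNA, fewer cells of a type and less RNA per cell cannot be told apart, and the part of composition or of sequencing depth in the histone values was not tested. When the hepatocyte marker level entered the fit as covariate, Hist1h1c had a log2 change of 1.64 (edgeR adjusted p = 6.9e-04), and 12 members were called higher and 0 lower, beside 8.48% and 8.55% of all tested genes. Without KO replicate 6 and WT replicate 2 Hist1h1c had 1.49 (edgeR adjusted p = 0.0138) and Hist1h4i was called lower (-0.73, edgeR adjusted p = 0.0149), beside 3.85% of all genes higher and 5.56% lower.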

How the data were processed

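The authors deposited raw counts per gene symbol, and exon and intron counts in a second table, whose exon counts equal the gene counts for 15543 genes. The gene table is labelled as minus HBMT, read here as without hemoglobin and mitochondrial genes. Library totals, shares and CPM therefore refer to the counts that it holds. Whether the part left out differs by genotype was not tested. RNA was poly(A)-selected, per the labels' protocols. STAR and HTSeq and the builds NCBIM37 and mm10 are named in the submitters' processing notes. No source used here gives versions, the strand setting or the handling of multiply mapped reads.

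KO and WT counts were compared in edgeR 4.0.16 (R 4.3.3) after TMM scaling. Genes were kept by filterByExpr with a count of 10 and a total of 15 as minima. The test was the quasi-likelihood F test over 15105 genes, with Benjamini-Hochberg adjustment and a threshold of 0.05. SE is the log2 change divided by the root of F. CPM are relative to TMM-scaled library sizes. DESeq2 1.42.0, limma-voom 3.58.1, RLE scaling, no filter, a hepatocyte covariate and fits without libraries were alternatives. Same-group libraries differed by 13.2 to 123 times sampling noise (chi-square per degree of freedom), which does not show whether they are biological replicates. Each library was counted as 1 replicate.

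All 70 symbols matched GENCODE M21 (GRCm38), and 57 members had a RefSeq promoter. Named are called members, the 3 of highest level per kb of exon in each class, the 3 largest changes each way, those next to the count limit, and called or fixed genes of the lists. Members, lists and rules were chosen with earlier results of these data known.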

Additional observations from a re-analysis of the deposited data

How the results depend on the processing

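Under RLE scaling, limma-voom and no filter, 1 member was called higher and 0 lower, as in the edgeR fit. DESeq2 called 3 members higher, and the hepatocyte covariate 12. Without the library of highest hepatocyte level in each group 1 was called lower. Leaving out each library gave 0 to 1 members higher and 0 to 1 lower, 5 to 483 genes higher and 7 to 1012 lower, 0 to 1 processing, 0 to 7 chaperone, 0 to 10 S phase and 0 to 3 replacement histone genes. For DESeq2, the covariate and the fit without both libraries, all genes called were 543, 1281 and 580 higher and 501, 1292 and 838 lower. The processing list gave 1, 2 and 3 calls, the chaperone list 2, 6 and 6, and the S phase list 2, 9 and 11. The log2 ratio of sums was 1.55 for H1 and 0.83 without Hist1h1c, 0.82 for all members and 0.30 without Hist1h1c, and -0.31 for H4 and 0.42 without Hist1h4i. Of 226 values of 19 named members under alternatives 8 changed sign, each in a member that had not passed: Hist1h1a (-0.16 without both libraries, -0.10 to 0.58 when each library was left out), Hist1h2af (-0.65 to 0.020 when each was left out) and Hist2h3c1 (0.028 without filter, -0.20 to 0.10 when each was left out). The cause was not tested. No paired analysis was possible because the KO and WT libraries share no replicate number. Most members had under 1 CPM, which limits the precision of their values.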
